A study of Danio rerio with 26 samples.

Results

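Enzymes of glycolysis and the thioredoxin-interacting protein gene txnipa were followed in the telencephalon of adult zebrafish after a wound. The 10 genes, hk1, aldoab, aldoca, gapdhs, pgk1, pgam1a, eno1a, pkma, ldha and txnipa, were chosen by symbol from 19260 measured genes, and each was read by a single named probe set. All of them were found. Earlier results of these data were known when the 10 were chosen. RNA was hybridised to 26 one-colour Affymetrix arrays from fish of the Tg(gfap:gfp)mi2001 line, 3 to 6 months old, in which the gfap promoter, active in radial glia, drives green fluorescent protein. Every group carried this transgene, and the labels name no sorting of cells, so each array reads a whole piece of tissue. In the medial neurogenic zone 4 arrays came from day 2 after the lesion, 3 from day 7 and 2 from unlesioned fish. In the dorsal subventricular zone (SVZ), the ventricular layer with radial glia, there were 3 arrays in each of these groups. In the dorsal parenchyma, the tissue outside the ventricular layer, 3 arrays came from day 2, 3 from day 7 and 2 from unlesioned fish. The series describes a stab wound, whereas the treatment text of the samples describes injection through a hole in the skull, a difference that the labels do not settle. Arrays are labelled as biological replicates with no count of fish for any of them, so p-values measure only the spread between these arrays.

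Glycolysis splits glucose into pyruvate in the cytosol and yields ATP and NADH. Hexokinase traps glucose as its phosphate, aldolase cuts the 6-carbon sugar, the enzymes of the payoff phase make ATP and pyruvate, and lactate dehydrogenase turns pyruvate and lactate into each other. In the brain both glia and neurons run it, and activated phagocytes of mammals are known for a high glycolytic flux. Txnip, an arrestin-family protein known best from mammals, binds thioredoxin and lowers glucose uptake by promoting the internalisation of glucose transporters, and its own transcription rises with sugar phosphates.

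Values are log2 intensities, so a difference of 1 is a 2-fold difference. They compare arrays for the same gene, not one gene with another. A gene was called where its limma p, adjusted with the Benjamini-Hochberg method over all 19260 genes, was under 0.05. Array medians lay between 3.01 and 3.21. The probe sequences were not used here, so cross-hybridisation between the paired copies of a gene that zebrafish carry was not tested.

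**Figure D1:**
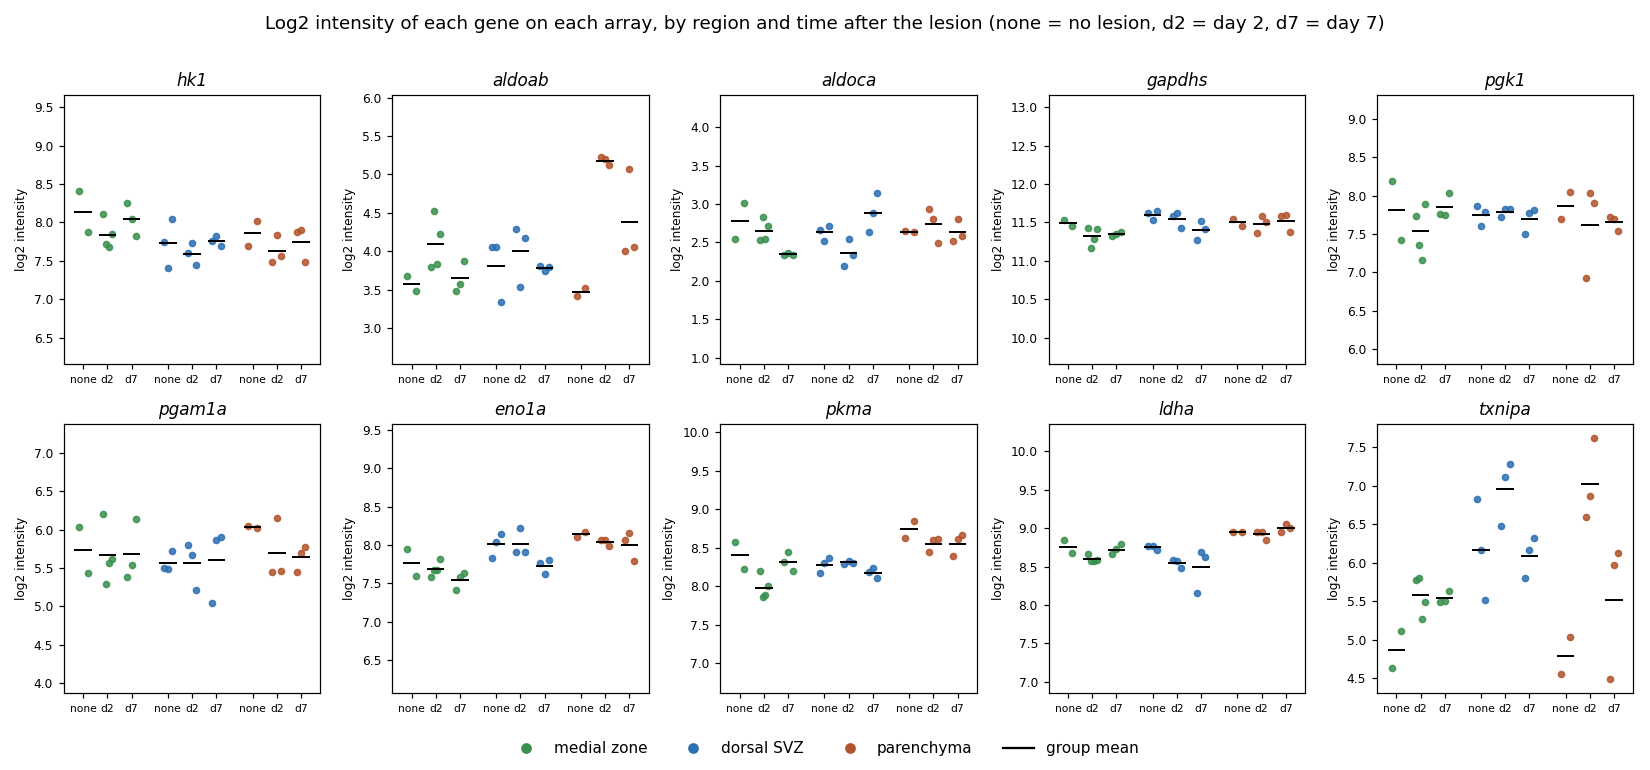
Log2 intensity of each of the 10 genes on each of the 26 arrays, by region and by time (no lesion, day 2, day 7). Points are arrays and bars are group means. The aldoab points of the parenchyma at day 2 lie between 5.12 and 5.23, above all its other arrays, whereas gapdhs stays between 11.17 and 11.65 throughout.

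At day 2 the parenchyma had higher aldoab and txnipa than without a lesion, and the other 8 genes did not pass the test. This was 2 of 10 genes, where 2.04% of all genes were called in this comparison and 1.7% were called higher. Because the 10 were chosen with earlier results of these data known, the share of members is a description and no test of enrichment. The median log2 fold change of the 10 was -0.07, with 3 positive and 7 negative, against a median of 0 over all genes. Aldolase A b (aldoab) read 5.23, 5.20 and 5.12 at day 2, against 3.42 and 3.52 without a lesion. All 3 day 2 arrays stood above both unlesioned arrays and also above every other array of the series. Day 2 averaged 5.18 ± 0.06 (SD, n = 3), against 3.47 ± 0.07 (SD, n = 2) in unlesioned fish. The log2 fold change was 1.71 (SE 0.29, 95% interval 1.12 to 2.31), or 3.28-fold (limma adjusted p = 0.000909). Both unlesioned values lay close to the array medians of 3.01 to 3.21, so this reference may be near background and the size of the fold is uncertain. Fitted to the parenchyma arrays alone, its adjusted p was 0.0518.

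The thioredoxin-interacting protein gene txnipa read 6.60, 6.87 and 7.62 in the parenchyma at day 2, against 4.55 and 5.03 without a lesion, and the groups did not overlap. Day 2 averaged 7.03 ± 0.53 (SD, n = 3), against 4.79 ± 0.34 (SD, n = 2) in unlesioned fish. The log2 fold change was 2.23 (SE 0.40, 95% interval 1.41 to 3.06), or 4.71-fold (limma adjusted p = 0.00173). With the first unlesioned replicate left out, the log2 fold change was 1.99 (adjusted p = 0.0595), and fitted to the parenchyma alone the adjusted p was 0.0867.

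The other enzymes did not pass the test in the parenchyma. Hexokinase 1 (hk1), the first step, read 7.48, 7.84 and 7.57 at day 2, against 7.69 and 8.02 without a lesion. The glyceraldehyde-3-phosphate dehydrogenase gapdhs, the step that makes NADH, read 11.36, 11.58 and 11.51 at day 2, against 11.54 and 11.45 without a lesion. Both sets overlapped. Phosphoglycerate kinase (pgk1), the first ATP-making step, read 6.93, 8.03 and 7.91 at day 2, against 7.69 and 8.05 without a lesion, and its first day 2 array lay apart from the other day 2 arrays.

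Phosphoglycerate mutase pgam1a read 5.45, 6.15 and 5.46 at day 2, against 6.05 and 6.02 without a lesion, with overlap. The enolase eno1a read 8.06, 8.07 and 7.99, against 8.11 and 8.17 without a lesion. The pyruvate kinase pkma, which makes pyruvate and ATP, read 8.44, 8.60 and 8.61, against 8.63 and 8.85 without a lesion. For eno1a and pkma the day 2 arrays lay just under the unlesioned ones, with log2 fold changes of -0.10 and -0.19 (limma adjusted p = 0.881 and 0.692). Lactate dehydrogenase A (ldha) read 8.95, 8.95 and 8.84, against 8.95 and 8.95 without a lesion.

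The remaining aldolase, aldoca, had group means of 2.35 to 2.89, under the table median of 3.09 in every group, so its values cannot be read as a level above background. Its day 2 log2 fold change in the parenchyma was 0.10 (SE 0.18).

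**Figure D2:**
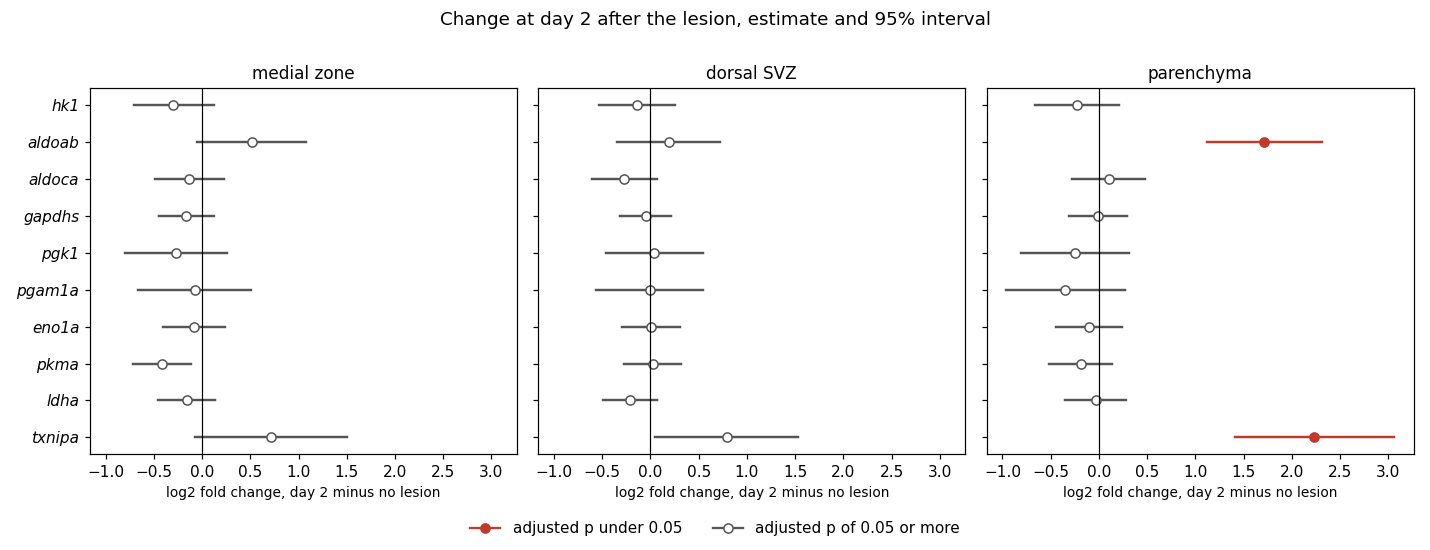
Log2 fold change at day 2 against no lesion for the 10 genes in each region (estimate, with bars for the 95% interval; filled red points have an adjusted p under 0.05). The filled points are aldoab at 1.71 and txnipa at 2.23 in the parenchyma, and the medial and SVZ panels hold none.

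Across the 3 regions and the 3 comparisons of times within each, the 7 enzymes other than aldoab and aldoca gave 63 log2 fold changes. These lay between -0.42 and 0.34 with a median of -0.07, and 53 were under 0.25 in size. Of their 95% intervals, 62 lay within 1 log2 unit of 0, and the outermost bounds were -1.01 and 0.78, so a 2-fold change was outside nearly all of the intervals. The lowest adjusted p was 0.35 (limma). The range of the 9 group means was 0.28 for gapdhs and 0.34 for pgk1, which stood at percentiles 4.1 and 8.2 among all genes. For aldoab it was 1.71 and for txnipa 2.23, at percentiles 91.9 and 95.9, and the median gene had a range of 0.68.

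In the dorsal SVZ at day 2 none of the 10 genes was called by limma (1, txnipa, had an unadjusted p under 0.05). Over all genes 0.27% were called and 6.8% had an unadjusted p under 0.05. Txnipa read 6.48, 7.12 and 7.28 at day 2, against 6.83, 6.17 and 5.52 without a lesion, and the groups overlapped (log2 fold change 0.79, SE 0.36, adjusted p = 0.688). Aldoab read 4.29, 3.54 and 4.17 at day 2, against 4.05, 4.05 and 3.34 without a lesion, again with overlap (0.19, SE 0.26, adjusted p = 0.984). Ldha lay under its unlesioned arrays on every day 2 array (-0.21, SE 0.14, limma adjusted p = 0.892).

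In the medial zone none was called at day 2 either (limma; 1, pkma, had an unadjusted p under 0.05). Over all genes 0.493% were called and 8.39% had an unadjusted p under 0.05. Txnipa read 5.77, 5.80, 5.27 and 5.49 at day 2, against 4.63 and 5.11 without a lesion. Aldoab read 3.80, 4.53, 3.83 and 4.23 at day 2, against 3.68 and 3.48 without a lesion. In both genes every day 2 array stood above both unlesioned arrays, with log2 fold changes of 0.71 (SE 0.38, adjusted p = 0.655) and 0.52 (SE 0.27, adjusted p = 0.649). Pkma read 8.20, 7.86, 7.88 and 8.0 at day 2, all under the unlesioned 8.57 and 8.22, an estimate of -0.42 on the log2 scale (SE 0.15, adjusted p = 0.35). Gapdhs and ldha also lay under both unlesioned arrays on every day 2 array, at -0.17 and -0.16 (limma adjusted p = 0.848 and 0.861). So separation was not particular to the genes with positive estimates. The share of all genes that separate in this way was not counted in any comparison.

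Averaged over the 3 regions, the day 2 effect was 1.25 for txnipa (SE 0.22, 95% interval 0.79 to 1.70, limma adjusted p = 0.0011) and 0.81 for aldoab (SE 0.16, 95% interval 0.48 to 1.13, adjusted p = 0.00301). No other member was called here, where 3.9% of all genes were called and 2.73% were called higher. The effect in the SVZ minus that in the parenchyma was -1.53 for aldoab (SE 0.39, unadjusted p = 0.000648, adjusted p = 0.224) and -1.45 for txnipa (SE 0.54, adjusted p = 0.546). The effect in the medial zone minus that in the parenchyma was -1.19 for aldoab (adjusted p = 0.391) and -1.52 for txnipa (adjusted p = 0.465). No member was called in the limma tests of these differences, so a difference between regions in the response was not shown. Over all genes these tests called 0.0519% for SVZ against parenchyma, 0.0104% for medial zone against parenchyma and 0% for medial zone against SVZ. At an unadjusted p under 0.05 the numbers of members were 2, 2 and 1. Over all genes 6.8%, 7.3% and 3.15% had such a p in these tests, which in the last was 606 genes.

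Markers of microglia and macrophages, the phagocytes of the brain, moved with the lesion in the same samples. Of 25 listed markers 21 were measured, and at day 2 in the parenchyma 17 were higher, none lower and 4 did not pass, with a median log2 fold change of 2.21. In the SVZ 9 were higher and in the medial zone 10, with medians of 1.29 and 1.36. The mean level of the list on the single arrays was 6.73 to 7.53 in the parenchyma at day 2, against 4.71 to 4.78 without a lesion. In the SVZ it was 5.72 to 6.33 at day 2, against 4.63 to 4.85, and in the medial zone 5.63 to 6.08, against 4.56 to 4.64. Over the 9 group means aldoab and txnipa had a Pearson r with this list of 0.88 and 0.75, and within groups, over 26 arrays, of 0.40 and 0.63. The likeness was not particular to this list. With a neutrophil list the r was 0.77 for aldoab and 0.53 for txnipa over group means, and -0.22 and 0.23 within groups. The mean level of that list lay close to the table median of 3.09. With a list of clock and glucocorticoid target genes aldoab had an r of -0.73 over group means and 0.34 within groups. With a list of hypoxia factors and targets txnipa had an r of 0.62 over group means and 0.36 within groups. Within groups txnipa also had an r of 0.76 with a radial glia list and 0.55 with a list of glucose and lactate transporters. With oligodendrocyte and endothelial lists it was 0.51 and 0.50. These are descriptions of points that share arrays, tissue and lesion, and the part of the phagocytes in the rise of either gene was not tested. In such tissue, fewer cells of a type and less RNA per cell cannot be told apart.

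**Figure D3:**
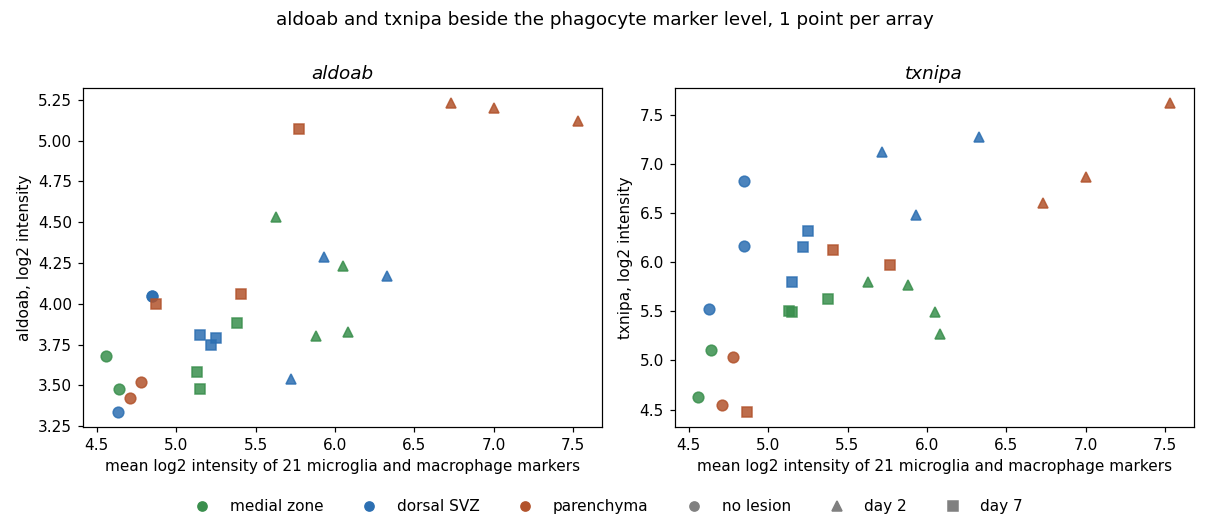
Log2 intensity of aldoab and txnipa on each array (y axis) against the mean log2 level of the 21 measured microglia and macrophage markers (x axis), by region and time. The parenchyma arrays of day 2 have the highest marker levels, 6.73 to 7.53.

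Neutrophil and muscle markers were read on the same arrays. Of 7 measured neutrophil markers 1 was called at day 2 in the parenchyma, and the mean level of the list was 3.48 to 3.69 at day 2, against 3.22 to 3.35 without a lesion. None of the 25 measured skeletal muscle markers was called there by limma (5 had an unadjusted p under 0.05, as did 12.5% of all genes). Their mean level was 3.21 to 3.24 at day 2, against 3.31 to 3.36 without a lesion. Muscle is a tissue rich in aldolase A and beta-enolase. The mean levels of the neutrophil and muscle lists lay close to the table median of 3.09, so they may be near background. The part of neutrophils or muscle in the values of the members was not tested.

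By day 7 in the parenchyma txnipa was lower than at day 2. It read 4.48, 5.97 and 6.12 at day 7, against 6.60, 6.87 and 7.62 at day 2, without overlap. The mean was 5.52 ± 0.91 (SD, n = 3) at day 7, and the log2 fold change against day 2 was -1.51 (SE 0.36, 95% interval -2.25 to -0.77), or 2.84-fold lower (limma adjusted p = 0.0358). It was the only member called in this comparison, where 1.15% of all genes were called and 1.03% were called lower. The call rested on single arrays: without day 7 replicate 1 the log2 fold change was -0.99 (adjusted p = 0.205), without day 2 replicate 3 it was -1.21 (adjusted p = 0.221), and without day 2 replicate 2 it was -1.59 (adjusted p = 0.0616). Fitted to the parenchyma alone, its adjusted p was 0.337.

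Aldoab read 4.00, 5.07 and 4.06 at day 7, against 5.23, 5.20 and 5.12 at day 2, also without overlap. The log2 fold change was -0.81 (SE 0.26, adjusted p = 0.18), and without day 7 replicate 2, the array at 5.07, its adjusted p was 0.0141. The mean level of the phagocyte markers on the same day 7 arrays was 4.87, 5.77 and 5.41. Replicate 1 had the lowest marker level, txnipa and aldoab. Replicate 2 had the highest marker level and aldoab, whereas txnipa was highest on replicate 3. Replicate 1 was also lowest in the mean level of the radial glia list, at 6.43 against 7.10 and 7.24 on replicates 2 and 3. For a list of clock and glucocorticoid target genes it read 5.86 against 6.86 and 6.59. This list was lowest on day 7 replicate 1 in the other regions too. It read 6.27 against 7.26 and 6.84 in the SVZ, and 6.04 against 7.27 and 7.07 in the medial zone. Txnipa was also lowest on replicate 1 there, at 5.80 in the SVZ and 5.49 in the medial zone, where replicate 2 read 5.50. Aldoab was lowest on it in the medial zone (3.48) and highest in the SVZ (3.81). The part of these in the day 7 values was not tested. Of the 21 markers 15 were lower at day 7 than at day 2.

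Against no lesion, no member was called at day 7 in any region (limma). In the parenchyma 0.125% of all genes were called and 10.8% had an unadjusted p under 0.05. Aldoab was the member with such a p (log2 fold change 0.91, SE 0.29, adjusted p = 0.225). In the SVZ and the medial zone 0% were called, although 858 and 784 genes (4.45% and 4.07%) had an unadjusted p under 0.05. Of the members there, none in the SVZ and 1 in the medial zone, aldoca, did. Averaged over regions 0.0935% of all genes were called at day 7 and 8.68% had an unadjusted p under 0.05. Eno1a was the member with such a p. Txnipa read 5.80, 6.16 and 6.32 in the SVZ at day 7, inside its unlesioned range, and 5.49, 5.50 and 5.63 in the medial zone, above the unlesioned 4.63 and 5.11. In the medial zone aldoca and gapdhs lay wholly under their unlesioned arrays at day 7, as did gapdhs, eno1a and ldha in the SVZ. In the parenchyma pgam1a also lay wholly under its unlesioned arrays at day 7, whereas aldoab lay wholly above them. The share of all genes that separate in this way was not counted, so these separations are descriptions.

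Between day 7 and day 2 no member was called in the SVZ or the medial zone (limma), where 0.0519% and 0.421% of all genes were called. The members with an unadjusted p under 0.05 were aldoca and txnipa in the SVZ and pkma in the medial zone. Over all genes 4.54% and 8.75% had such a p there. Txnipa lay lower on all 3 day 7 arrays of the SVZ than on its day 2 arrays (-0.87, SE 0.36, adjusted p = 0.983). Eno1a and pkma also lay lower on all of these arrays, and aldoca lay higher. In the medial zone the day 7 and day 2 means of txnipa were 5.54 and 5.58.

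Without a lesion, txnipa was higher in the SVZ than in the parenchyma. It read 6.83, 6.17 and 5.52 in the SVZ, against 4.55 and 5.03 in the parenchyma, a log2 fold change of 1.38 (SE 0.40, 95% interval 0.55 to 2.21), or 2.6-fold (limma adjusted p = 0.0379). It was the only member called, where 6.69% of all genes were called and 4.89% were called higher. This call was kept in 7 of 15 alternatives and lost in the others. Among these were the fit with a replicate block (1.32, adjusted p = 0.0551) and the fit to the SVZ and parenchyma arrays of all times alone (adjusted p = 0.0888). Both parenchyma arrays and SVZ replicates 1 and 2 each ended it when left out. The medial zone, at 4.63 and 5.11, was close to the parenchyma (difference 0.07) and lower than the SVZ (-1.31, SE 0.40, adjusted p = 0.0715). No member was called for medial zone against parenchyma (limma; none had an unadjusted p under 0.05) or for medial zone against SVZ (1, txnipa, had), where 10.5% and 4.15% of all genes were called. An unadjusted p under 0.05 was found for 23.6% and 14.3% of all genes.

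Averaged over the 3 times, the regions differed in a few of the enzymes. These 3 comparisons were added after the data had been seen. The parenchyma had the highest ldha, which read 8.15 to 8.77 in the SVZ (median 8.63, n = 9) and 8.57 to 8.85 in the medial zone (median 8.66, n = 9), against 8.84 to 9.05 in the parenchyma (median 8.95, n = 8). The SVZ and the parenchyma did not overlap, and the medial zone met the parenchyma at its upper end. The log2 fold change was -0.36 for SVZ against parenchyma (SE 0.08, limma adjusted p = 0.00252) and -0.26 for medial zone against parenchyma (SE 0.08, adjusted p = 0.0186).

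The pyruvate kinase pkma was also highest in the parenchyma. It read 8.11 to 8.36 in the SVZ (median 8.29) and 7.86 to 8.57 in the medial zone (median 8.20), against 8.39 to 8.85 in the parenchyma (median 8.61). Its log2 fold changes against the parenchyma were -0.36 in the SVZ (SE 0.08, adjusted p = 0.00319) and -0.38 in the medial zone (SE 0.09, adjusted p = 0.00139). The enolase eno1a was lowest in the medial zone, at 7.42 to 7.95, against 7.62 to 8.22 in the SVZ and 7.79 to 8.17 in the parenchyma. The difference was -0.39 against the parenchyma (SE 0.09, adjusted p = 0.00148) and -0.25 against the SVZ (SE 0.09, adjusted p = 0.0443). These are differences of 1.19-fold to 1.31-fold. The eno1a call against the SVZ held in 13 of 28 alternatives and the ldha call of the medial zone against the parenchyma in 26 of 28. The pkma and ldha calls of the SVZ against the parenchyma held in 28 of 28.

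Aldoab averaged lower in the SVZ (-0.48, adjusted p = 0.0307, a call kept in 21 of 28 alternatives) and the medial zone (-0.57, adjusted p = 0.00727) than in the parenchyma, an average that holds its day 2 rise in the parenchyma. Txnipa was higher in the SVZ than in the parenchyma (0.63, SE 0.22, adjusted p = 0.0427, a call kept in 14 of 28 alternatives) and lower in the medial zone than in the SVZ (-1.08, SE 0.21, 2.11-fold, adjusted p = 0.00056). For medial zone against parenchyma it did not pass (-0.45, adjusted p = 0.117). Hexokinase hk1 was the member whose medial estimates were positive against both regions, 0.26 against the parenchyma and 0.31 against the SVZ, and neither passed (adjusted p = 0.085 and 0.0512). The first passed in 1 and the second in 10 of 28 alternatives, with a lowest adjusted p of 0.0206 for the second.

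In all, 1 member was higher and 3 were lower in the SVZ than in the parenchyma, where 19.2% of all genes were called, 11.9% higher and 7.28% lower. In the medial zone against the parenchyma 4 were lower, where 34.1% of all genes were called and 13.4% lower. In the medial zone against the SVZ 2 were lower, where 19.6% of all genes were called and 8.27% lower. The shares of members called, 4 of 10, 4 of 10 and 2 of 10, stand beside these high backgrounds and are not set apart from them.

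**Figure D4:**
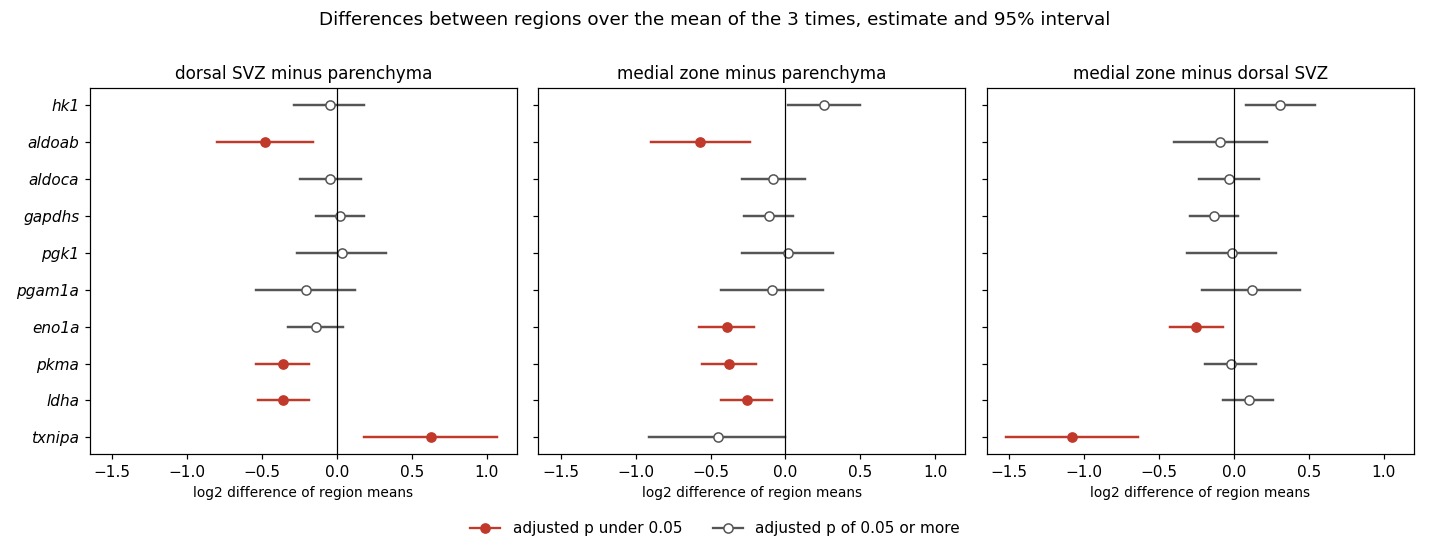
Log2 fold change between regions, averaged over the 3 times, for the 10 genes (estimate, with bars for the 95% interval; filled points have an adjusted p under 0.05). Ldha and pkma lie at -0.36 for SVZ against parenchyma, and txnipa at -1.08 for medial zone against SVZ.

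Cell markers moved with region in the same arrays. Of 14 measured radial glia markers 11 were higher in the SVZ than in the parenchyma and 10 were higher in the medial zone than in the parenchyma, with medians of 1.64 and 1.65. Of 23 measured neuron markers 10 were lower in the SVZ, and 13 were lower and 4 higher in the medial zone, with medians of -0.29 and -0.61. The mean level of the neuron list on the single arrays was 7.77 to 8.25 in the SVZ and 7.79 to 8.38 in the medial zone, against 8.27 to 8.79 in the parenchyma. Of 10 measured oligodendrocyte markers 7 were lower in the SVZ and 5 in the medial zone, with medians of -0.87 and -0.44, and a mean level of 4.74 to 5.28 in the SVZ and 5.25 to 5.75 in the medial zone, against 5.72 to 6.52 in the parenchyma. Of 15 measured endothelial and mural markers 8 were lower and 4 higher in the SVZ, and 7 were lower and 4 higher in the medial zone. Beside these counts, the averages over the 3 times called 19.2% of all genes in the SVZ against the parenchyma, 11.9% higher and 7.28% lower. In the medial zone against the parenchyma they called 34.1%, with 13.4% lower, so part of the smaller marker counts lies near the background. Over the 9 group means ldha had an r of 0.92 with the neuron list, 0.84 with the endothelial list, 0.81 with the oligodendrocyte list and -0.83 with the radial glia list. For pkma these were 0.87, 0.83, 0.62 and -0.84. Within groups ldha had an r of 0.18 with the neuron list, 0.11 with the endothelial list, 0.10 with the oligodendrocyte list and 0.49 with the radial glia list. For pkma these were 0.32, 0.02, -0.06 and 0.31, so the sign for radial glia was the other way within groups. For eno1a the r with the neuron list was 0.48 over group means and 0.55 within groups. The likeness over group means was not particular to these lists. Eno1a had an r of 0.82 with the skeletal muscle list, 0.73 with the transporter list and -0.68 with the radial glia list. Within groups these were -0.20, 0.15 and -0.34. With a pentose phosphate and glycogen list pkma and ldha had an r of -0.83 and -0.80 over group means, and 0.31 and 0.43 within groups. Of the other enzymes, hk1 had a within-group r with the neuron list of 0.87, pgk1 of 0.60, gapdhs of 0.58 and pgam1a of 0.42. Those of aldoca and aldoab were 0.08 and -0.17. Over group means the r with the neuron list was 0.04 for hk1, 0.13 for pgk1, 0.29 for gapdhs and 0.47 for pgam1a. For aldoca and aldoab it was 0.14 and 0.27. Txnipa had an r with the radial glia list of 0.04 over group means and 0.76 within groups. The part of these cell types in the regional differences was not tested.

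Ordered by level, the txnipa group means ran from 7.03 in the parenchyma and 6.96 in the SVZ at day 2 through 6.17 in the SVZ without a lesion, 6.09 in the SVZ at day 7, 5.58 and 5.54 in the medial zone at days 2 and 7 and 5.52 in the parenchyma at day 7 to 4.87 in the medial zone and 4.79 in the parenchyma without a lesion. Neighbours in this order overlapped or touched to 2 decimals. For aldoab the parenchyma at day 2 was first at 5.18 and the parenchyma without a lesion last at 3.47, the parenchyma at day 7 was next to the top at 4.38, and the 6 means of the other regions lay between 3.58 and 4.1.

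Paired copies of the genes were read too. Aldoaa, the other aldolase A, had a log2 fold change of -0.02 at day 2 in the parenchyma (95% interval -0.34 to 0.29), and aldocb, the other aldolase C, of -0.03 (95% interval -0.36 to 0.29). The second txnip gene, txnipb, lay under the table median in every group and had a log2 fold change of -0.26 (95% interval -0.67 to 0.15). At day 2 in the parenchyma the log2 fold change was -0.10 for pgam1b, -0.39 for eno1b and 0 for pkmb (SE 0.17, 0.33 and 0.20). It was -0.12 for gapdh (95% interval -0.63 to 0.39), and -0.04 and -0.07 for the lactate dehydrogenase B genes ldhba and ldhbb. None of these passed the test, and the difference between copies was not tested. These copies were named after their values were seen.

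The wider pathway was read from lists of other glycolysis enzymes, sugar and lactate transporters and pyruvate entry into mitochondria. Of 34 other glycolysis enzymes 30 were measured, and none was called in any of the 9 comparisons of times within a region (limma; 0 to 4 had an unadjusted p under 0.05 in each). Over all genes 4.07% to 12.5% had such a p in these comparisons. Averaged over regions at day 2, 1 of 30 was higher, a share close to the 2.73% of all genes called higher in this comparison. It was eno3, known in mammals as the muscle enolase, at 0.70 (SE 0.13, 1.63-fold, adjusted p = 0.00196). Eno3 read 5.90 to 6.26 in the parenchyma at day 2, against 5.28 to 5.38 without a lesion, and 5.86 to 6.26 in the medial zone, against 5.18 to 5.24. In the SVZ it read 5.83 to 6.56 at day 2, against 5.52 to 5.86 without a lesion, with overlap. Within regions it did not pass (adjusted p = 0.106, 0.124 and 0.661 in the parenchyma, medial zone and SVZ). The hexokinase hk2, named outside the rule for named genes, was not called in the parenchyma at day 2 (log2 fold change 0.57, adjusted p = 0.168). Its unlesioned arrays there read 2.85 and 3.41, around the table median of 3.09, so they may be near background.

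Of 16 measured transporters of 18 listed, the lactate carrier gene slc16a3b was lower at day 2 averaged over regions (-0.82, SE 0.20, adjusted p = 0.021), and the other 15 did not pass. None of 15 measured genes of pyruvate entry was called at day 2 in that average (limma; 2 had an unadjusted p under 0.05, as did 15.5% of all genes). In the txnip family and thioredoxin list 13 of 17 genes were measured, and prdx1, a thioredoxin-dependent peroxidase, was higher in the SVZ at day 2 (5.72 ± 0.24, n = 3, against 4.38 ± 0.05, n = 3; log2 fold change 1.33, SE 0.29, limma adjusted p = 0.0439). In that SVZ comparison 0.27% of all genes were called. The log2 fold change of prdx1 in the parenchyma at day 2 was -0.32 (SE 0.32). In the medial zone it averaged 5.99 at day 2, against 5.22 without a lesion. A link between prdx1 and txnipa was not tested.

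Without a lesion the regions also differed in this wider pathway. In the SVZ against the parenchyma 4 of 30 other glycolysis enzymes were higher. Over all genes 6.69% were called in this comparison and 4.89% were called higher. The 4 were eno1b (1.63, SE 0.33, limma adjusted p = 0.00282), pfkfb3 (1.19, SE 0.25), which makes an activator of phosphofructokinase, the phosphofructokinase pfklb (1.36, SE 0.33) and the hexokinase relative hkdc1 (0.97, SE 0.28). The glucose transporter gene slc2a1a was lower in the SVZ (-1.64, SE 0.36, adjusted p = 0.00514), whereas its copy slc2a1b was higher (1.17, SE 0.34, adjusted p = 0.0376). Pyruvate dehydrogenase kinase pdk2a, which restrains the entry of pyruvate into the citric acid cycle, was higher in the SVZ (6.44 ± 0.35, n = 3, against 3.59 ± 0.22, n = 2; 7.24-fold, adjusted p = 1.58e-05). These transporter and pyruvate genes come from lists of 16 and 15 measured genes. The other genes of these lists are not described here, so the named ones do not stand for the step.

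Among themselves the 9 enzymes had 36 pairs. Over the 9 group means 26 of the pairs had a positive r with a median of 0.12, and within groups 28 were positive with a median of 0.18. The pair of pkma and ldha had an r of 0.84 over group means and 0.18 within groups. For gapdhs and eno1a these were 0.80 and 0.31. Within groups the highest r was 0.74, for pgam1a and ldha, which had 0.52 over group means. Txnipa had a negative r with 6 of the 9 enzymes, with a median of -0.20 over group means, and its r with hk1 was -0.80. Within groups the sign was mostly the other way, with 6 of the 9 positive and a median of 0.13, but with hk1 it stayed negative at -0.25. These are descriptions over 9 points that share region and time.

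For likeness 10756 genes were screened, with a mean above the table median, a range of group means of at least 0.5 and no clone name. The highest of so many r over only 9 points is high by selection alone, so these r are descriptions and no test. Among these genes, those whose 9 group means were most like aldoab were bin2b (r = 0.967) and grapa (r = 0.956). Those most like txnipa were rbp2a (r = 0.976) and samd13 (r = 0.961). For hk1 they were slc36a4 (r = 0.961) and kcng2 (r = 0.954), for gapdhs PRRC2B (r = 0.961) and aqp12 (r = 0.96), and for pgk1 ftr51 (r = 0.898) and tusc3 (r = 0.892). For pgam1a they were lhfpl4b (r = 0.964) and stx16 (r = 0.946), for eno1a ppp2r2cb (r = 0.986) and lzts2b (r = 0.969), for pkma hmgcll1 (r = 0.973) and ano8a (r = 0.969), and for ldha tinagl1 (r = 0.966) and unc80 (r = 0.964). For aldoca, read under the table median, they were ptges (r = 0.892) and scamp5b (r = 0.84). The group means of gapdhs and pgk1 had ranges of only 0.28 and 0.34, so their likeness rests on small differences. Rank correlations could be lower, such as a Spearman rho of 0.667 for ptges with aldoca and 0.733 for lzts2b with eno1a.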

How the data were processed

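Per the submitters' processing notes, the authors ran RMA (background correction, quantile normalization, one summary for a probe set) with Affymetrix Expression Console 1.2 and deposited the log2 intensities used here. RNA was taken with a micro column kit and amplified, per the labels' protocols. No genome build is given in the sources used here, so no position is printed. Scanner files were not used here, and the number of arrays, 2 to 4 per group, limits the precision.

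Of 75212 probe sets 20806 had 1 symbol in the platform annotation, 855 had several and 53551 had none. Current symbols were looked up by Entrez identifier (20323 found, 1 changed) and served only to match the gene lists. Genes kept their platform symbols. A gene was its probe set with the highest mean, which gave 19260 genes, 1365 of them with more than 1 probe set. A limma 3.58.1 model (R 4.3.3, lmFit, contrasts.fit and eBayes) gave each group its own mean over the 26 arrays and was used for 20 comparisons, with Benjamini-Hochberg adjustment over all genes and 95% intervals. The fit was tested on simulated data. Figures were drawn with matplotlib 3.10.9, and tables made with pandas 2.3.3 and numpy 2.4.6 under python 3.11.15.

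The members and gene lists were chosen with earlier results of these data known. Named genes were all members, up to 4 called genes of each list by rank of adjusted p and, for each member, the 2 genes with the highest r over group means. No arrays were duplicates (highest correlation 0.9833). Over all groups, deviations of arrays with the same number correlated over 0.1 in 13 of 93 pairs. Between regions at day 7 this held for 8 of 9 pairs (r = 0.08 to 0.22, against -0.20 to 0.02 for different numbers), and at day 2 for all 3 pairs of SVZ and parenchyma, so these arrays may not be independent, on which the labels say nothing. The model treats all arrays as independent, and random blocks were added after the data had been seen. Alternatives were array weights, filters, scaling, replicate block, other fits and leaving out each array.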

Additional observations from a re-analysis of the deposited data

How the results depend on the processing

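No called value changed sign in any alternative, whereas 82 of the 184 uncalled pairs of a member and a comparison did in at least 1 alternative, and 6 were called in at least 1. Other fits used only the arrays of the compared region or regions, at all times. There the count of members called in the parenchyma was 0 for day 2 against no lesion and 0 for day 7 against day 2. Without a lesion it was 0 for SVZ against parenchyma and 1 (txnipa) for medial zone against SVZ. With array weights the count for SVZ against parenchyma without a lesion was 0. Quantile normalization applied again left it at 1, but the gene called was pkma (limma adjusted p = 0.0253) and txnipa did not pass (adjusted p = 0.0731). With the replicate number as a block the count was 0 for the same comparison, 2 for SVZ against parenchyma over the 3 times and 1 for medial zone against SVZ over the 3 times. The fixed block changed no other count. A random block of the arrays of 1 time and number (consensus correlation 0.021), or of the day 7 arrays of 1 number (0.113), kept every call of the report and added hk1 for medial zone against SVZ over the 3 times, a count of 3. With the array median subtracted the count for medial zone against SVZ over the 3 times was 1. Leaving out single arrays gave counts of 1 to 2 for day 2 in the parenchyma, 0 to 2 for day 7 against day 2 in the parenchyma, 0 to 1 for SVZ against parenchyma and 0 to 1 for medial zone against SVZ without a lesion, and over the 3 times 2 to 4 for SVZ against parenchyma and 1 to 3 for medial zone against SVZ. Where an unlesioned group of 2 lost an array, the lone array was assumed to vary like the other groups. Aldoab kept its call at day 2 in the parenchyma in 15 of 16 alternatives (1.66 to 1.81), txnipa in 14 of 16 (1.94 to 2.48), and both kept it averaged over regions in 27 of 27. The cause of the lost calls was not tested. The largest shift of the median of all genes under another scaling was 0.105, for medial zone against parenchyma without a lesion. A fit to single regions could not be made for the averages over regions.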

Other observations

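Averaged over the 3 regions at day 2, 6 of 27 clock and glucocorticoid target genes were lower than without a lesion and none higher, with a median log2 fold change of -0.56 over the list, where 3.9% of all genes were called. The circadian repressor gene per1b had a log2 fold change of -0.91 (SE 0.19, limma adjusted p = 0.00563), and nr1d2a and nr1d1 had -1.35 and -1.53. The hour at which tissue was taken is not given in the sources used here, and its part was not tested.

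Of 31 measured hypoxia factors and targets of 34 listed, 1 was higher and 2 were lower in the same average. The heme oxygenase gene hmox1a was higher, with a log2 fold change of 1.33 (SE 0.31, limma adjusted p = 0.0123), whereas epas1a (-0.82, adjusted p = 0.00218) and hif1al (-0.80, adjusted p = 0.0228) were lower. In the parenchyma hmox1a was lower at day 7 than at day 2, with a log2 fold change of -2.06 (limma adjusted p = 0.0401), as was the pentose phosphate gene pgd at -0.84 (adjusted p = 0.0171).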
